A study of Mus musculus with 12 samples.

Results

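The comparison described here sets the NMDA response of shPax6 retinas against that of JNK3 KO retinas, gene by gene. For each gene the log2 difference between NMDA and PBS was taken in each condition, and the JNK3 KO value was subtracted from the shPax6 value. A positive difference of responses therefore means that NMDA moved the gene further up, or less far down, in shPax6 than in JNK3 KO retinas. It rests on 8 of the 12 RNA-seq libraries of the series, 2 in each of 4 groups, and on all 15888 autosomal genes among the 16471 genes tested. The shPax6 retinas came from C57BL/6J (B6J) mice that received the viral vector AAV2.7m8 with the cassette pU6-shPax6-GFP, which carries a short hairpin RNA against *Pax6*. The JNK3 KO retinas came from *Jnk3*-/- mice of the Jackson Laboratory, and their labels name no hairpin. Each eye received an intravitreal injection of 1 µL of PBS, or of 1 µL of 40 mM NMDA, that is 40 nmol. Each library was made from poly(A) RNA of more than 3 pooled retinas. The U6 promoter works in any cell type the virus enters and the knockout is present in the whole body, so neither model is limited to retinal ganglion cells (RGCs). No library of retinas with the shScramble vector is among the 12. Infection, knockdown, and genotype therefore cannot be told apart in the difference.

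NMDA is an agonist of ionotropic glutamate receptors, and in the eye an excess of it kills RGCs and many amacrine cells by calcium overload. JNK3, encoded by *Mapk10*, is the neuronal member of the c-Jun N-terminal kinases, which phosphorylate JUN and other proteins in stressed neurons. PAX6 is a paired-box and homeodomain transcription factor of eye development that adult RGCs, amacrine cells, and horizontal cells still carry. Injury of the retina is also followed by reactive gliosis of Müller glia, activation of microglia, and entry of blood leukocytes.

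Values are FPKM, fragments scaled to transcript length and library size, and differences are on the log2(FPKM + 0.1) scale with their standard errors from 1 limma model of all 12 libraries. Calls needed 3 things, an adjusted p (Benjamini-Hochberg, over all genes tested) below 0.05, an absolute value above 1, and a mean that exceeded 1 FPKM in 1 or more of the 4 groups. With 2 libraries a group, p-values measure the spread between these libraries only, since nothing states that they came from separate experiments. The depth behind a value is unknown, because FPKM do not keep the number of reads. Fewer cells of a type and less RNA per cell cannot be told apart in whole retinas.

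The checks on the labels gave a mixed picture. The FPKM of *Pax6* were 94.56 and 92.84 in shPax6 retinas with PBS, 67.52 and 58.73 in those with NMDA, 186.72 and 191.41 in JNK3 KO PBS, and 128.89 and 137.55 in JNK3 KO NMDA. Every shPax6 library lay below every JNK3 KO library. The level differed between the conditions under PBS (-1.01 on the log2 scale, called) but the responses did not pass the test for a difference (-0.07 ± 0.10, adjusted p = 0.684). *Mapk10*, the gene deleted in JNK3 KO mice, was listed at 9.47, 8.75, 6.65, and 13.77 FPKM in the JNK3 KO libraries, at 20.86 and 21.33 in shPax6 PBS, and at 16.16 and 8.85 in shPax6 NMDA. The shPax6 NMDA libraries overlapped the JNK3 KO libraries, and the gene value sums exons outside any deleted part, so it does not check the knockout. Retinal identity was clear, with *Gnat1*, the rod transducin, at 3635.52 FPKM or more in each of the 8 libraries.

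Of the 15888 genes, 1363 (8.58%) were called on the difference of responses, 1036 (6.52%) higher and 327 (2.06%) lower. Higher calls made up 76.01% of them. The share of higher calls followed the scaling. It was 63% with each library scaled to its autosomal sum, 66% with 75th-percentile scaling, and 56.93% with quantile normalization. The median difference over all genes was 0.11 in FPKM and moved to -0.04, -0.01, and -0.09 under those scalings. Among the called genes, 1145 were reported protein-coding, 869 higher and 276 lower. In 128 of the genes called higher (12.4%) at least 1 of the 4 groups was listed at 0 in both libraries, for which no fold is given. A further limit is the filter, since 152 of the 1036 had a mean above 1 FPKM in shPax6 NMDA alone. The gene lists described below held 0 to 2 such members each, apart from lymphocyte markers (5 of 6) and immunoglobulin genes (98 of 102).

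Most of the difference lay on the shPax6 side. After NMDA 1360 genes rose (8.56%) and 754 fell (4.75%) in shPax6 retinas, against 121 that rose (0.762%) and 295 that fell (1.86%) in JNK3 KO retinas. Of the 1036 genes with a higher difference, 814 (78.6%) rose in shPax6, 161 (15.5%) fell in JNK3 KO, and 109 (10.5%) did both. For 170 of them (16.4%) neither response was called alone. Of the 327 genes with a lower difference, 229 (70.0%) fell in shPax6 and 16 (4.89%) rose in JNK3 KO. Since the same 4 groups make the difference and the 2 responses, these counts say where it lies and are not separate evidence for it.

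**Figure D1:**
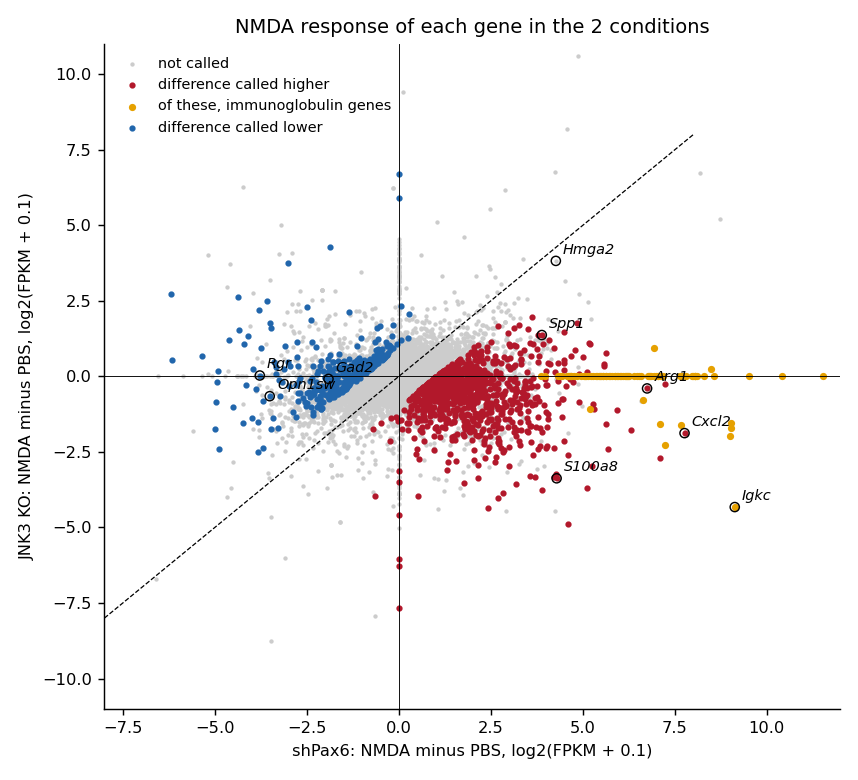
Log2 change after NMDA of each autosomal gene in shPax6 retinas (horizontal axis) and in JNK3 KO retinas (vertical axis), log2(FPKM + 0.1), with genes called on the difference in colour and the line of equal responses dashed. The called genes spread along the shPax6 axis, and the immunoglobulin genes, which were selected after their values were seen, lie far to the right.

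The level before NMDA also took part. Under PBS 118 genes were higher (0.743%) and 536 lower (3.37%) in shPax6 than in JNK3 KO retinas, and after NMDA 1010 were higher (6.36%) and 799 lower (5.03%). Among the 1036 genes with a higher difference, 311 (30.0%) were already lower in shPax6 under PBS, and for 172 (16.6%) the PBS level alone was called. A further 501 (48.4%) did not pass the test under PBS and were higher in shPax6 after NMDA. Of the 327 genes with a lower difference, 26 (7.95%) were higher in shPax6 under PBS and 225 (68.8%) lower after NMDA. A high difference of responses thus covered more than 1 arrangement of the 4 levels.

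**Figure D2:**
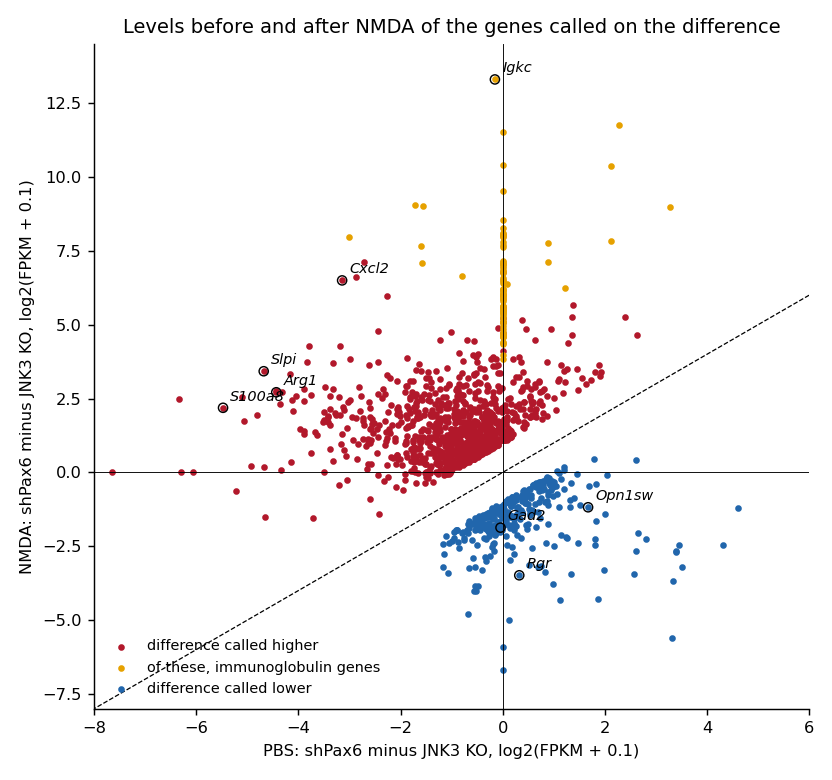
Difference between shPax6 and JNK3 KO retinas under PBS (horizontal axis) and after NMDA (vertical axis), log2(FPKM + 0.1), for the 1363 called genes, with the line of equal differences dashed. Genes such as *S100a8* and *Arg1* lie at the left, lower in shPax6 under PBS, whereas *Gad2* and *Rgr* lie near 0 on the PBS axis and below 0 on the NMDA axis.

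Among protein-coding genes 257 were called in both responses. In 68 both rose, in 88 both fell, and in 101 the gene rose in shPax6 and fell in JNK3 KO, while 0 genes fell in shPax6 and rose in JNK3 KO. At an unadjusted p under 0.05 in both limma tests these opposite pairs numbered 160 and 5. Of these 101, 82 were lower in shPax6 than in JNK3 KO under PBS, and 19 did not pass the test there. After NMDA 93 of the 101 were higher in shPax6.

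*Lcn2* (chromosome 2, 32384633 to 32388252, minus strand, GRCm38), which encodes the iron-siderophore-binding lipocalin 2 of reactive glia and neutrophils, showed opposite responses from like starting levels. It was listed at 507.04 and 500.26 FPKM in shPax6 PBS, 2030.48 and 1996.51 in shPax6 NMDA, 585.51 and 562.56 in JNK3 KO PBS, and 129.68 and 136.91 in JNK3 KO NMDA. The shPax6 NMDA libraries were the highest, the JNK3 KO NMDA libraries the lowest, and no group overlapped another. The difference of responses was 4.10 ± 0.07 (adjusted p = 7.82e-09), made of a rise of 2.00 and a change of -2.11.

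*S100a8* (chromosome 3, 90668978 to 90670035), which encodes a calcium-binding protein of neutrophils and monocytes, had instead very unequal PBS levels. It stood at 1.44 and 1.14 FPKM in shPax6 PBS, 22.92 and 31.56 in shPax6 NMDA, 57.29 and 65.6 in JNK3 KO PBS, and 6.42 and 5.29 in JNK3 KO NMDA. The JNK3 KO PBS libraries were thus the highest of the 8, and the groups did not overlap. Its difference of 7.66 ± 0.25 (adjusted p = 4.51e-07) combined a rise of 4.29 in shPax6 with a fall of 3.37 in JNK3 KO. The wild-type PBS libraries stood higher still, at 92.61 and 107.55 FPKM.

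The plot of 12 genes by library shows these arrangements side by side, for genes of the groups described below.

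**Figure D3:**
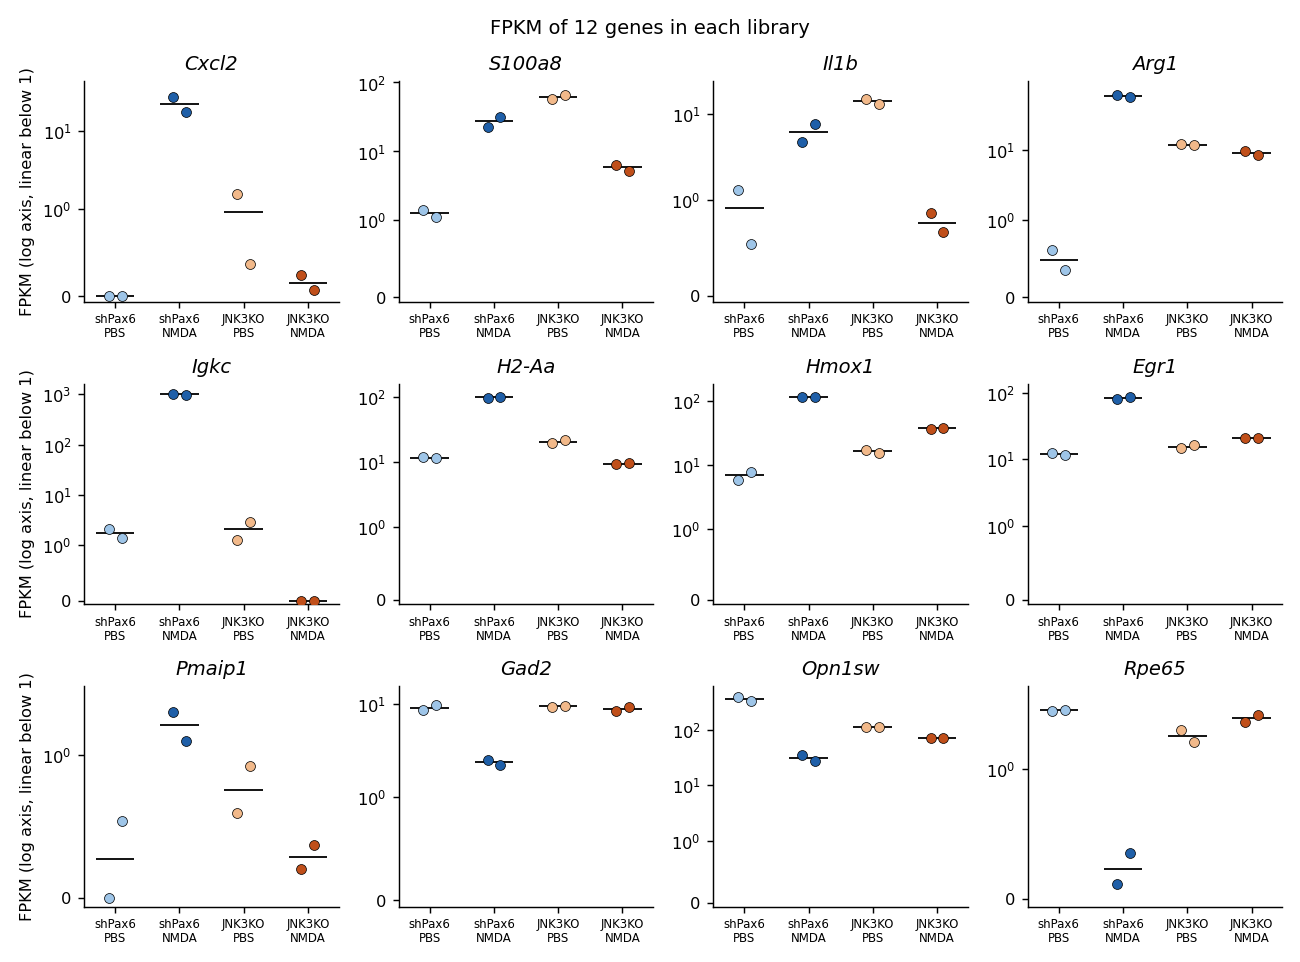
FPKM of 12 genes in each of the 8 libraries, on an axis that is logarithmic above 1 FPKM and linear below it; each point is a library and each bar the mean of 2. *S100a8* and *Il1b* were highest in JNK3 KO PBS, *Gad2*, *Opn1sw*, and *Rpe65* were lowest in shPax6 NMDA, and *Igkc* was far higher in shPax6 NMDA than in the other 3 groups.

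Chemokines draw leukocytes into tissue. Of 20 chemokine genes tested, 13 were called higher on the difference and 0 lower, with a median of 3.33 (0.11 over all genes). Of the 20, 2 passed the filter through shPax6 NMDA alone. For this list and those below, the shares over all genes were 6.52% called higher and 2.06% called lower. Here and in the lists below that had 0 lower calls, 0 to 2 members were lower at an unadjusted p under 0.05 by limma, other than the lists of Müller glia (3 members) and rods (16). Such an unadjusted p was reached, in either direction, by 5065 of the 15888 genes, which is the background for all unadjusted counts below. In shPax6 retinas 16 of the 20 rose after NMDA and 3 fell, whereas in JNK3 KO retinas 1 rose and 4 fell. *Cxcl2*, a neutrophil attractant, was listed at 0 in both shPax6 PBS libraries, at 26.85 and 17.43 FPKM in shPax6 NMDA, at 1.56 and 0.37 in JNK3 KO PBS, and at 0.24 and 0.07 in JNK3 KO NMDA. The shPax6 NMDA libraries were far above all others. *Cxcl1*, a close relative, was also at 0 in both shPax6 PBS libraries and reached 2.83 and 5.02 FPKM in shPax6 NMDA, against 1.85 and 1.43 in JNK3 KO PBS and 0.66 and 1.02 in JNK3 KO NMDA (adjusted p = 0.000178). *Ccl22*, an attractant of T cells made by macrophages and dendritic cells, stood at 0 and 0.25 FPKM in shPax6 PBS and at 4.3 and 3.68 after NMDA. In JNK3 KO retinas it was at 0.33 and 0.23 under PBS and 0.06 and 0.04 after NMDA, and its difference was 5.78 ± 0.95. Among the 4 groups *Cxcl2* and *Ccl22* exceeded a mean of 1 FPKM in shPax6 NMDA alone. Their calls therefore depended on being high there, and no p-value is given for them.

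NF-κB is the transcription factor that tumour necrosis factor and interleukin-1 switch on, and its targets followed the chemokines. Of 21 target genes tested, 10 were called higher and 0 lower on the difference (median 1.21). *Il1b*, the gene of interleukin-1β, stood at 1.3 and 0.54 FPKM in shPax6 PBS, 4.74 and 7.63 in shPax6 NMDA, 14.94 and 12.96 in JNK3 KO PBS, and 0.86 and 0.67 in JNK3 KO NMDA. JNK3 KO PBS was the highest group, and shPax6 PBS overlapped JNK3 KO NMDA. The difference was 6.72 ± 0.49 (adjusted p = 4.56e-05). *Tnf*, the gene of tumour necrosis factor, was listed at 0 in both shPax6 PBS libraries and at 1.09 in both after NMDA, while JNK3 KO retinas had 1.02 and 1.07 FPKM with PBS and 0.18 and 0.38 with NMDA (adjusted p = 0.000599). *Traf1*, which encodes an adaptor of the TNF receptors, gained 3.72 in shPax6 and lost 1.69 in JNK3 KO, a difference of 5.41 ± 0.62. *Il1r2* and *Il1rn*, which encode a decoy receptor and a receptor antagonist that block interleukin-1, went the same way as *Il1b*. *Il1r2* was at 0.32 and 0.08 FPKM in shPax6 PBS, 5.28 and 5.09 in shPax6 NMDA, 4.97 and 4.64 in JNK3 KO PBS, and 0.35 and 0.5 in JNK3 KO NMDA. The treatment groups thus traded places, with shPax6 NMDA near JNK3 KO PBS (difference 7.50 ± 0.53, adjusted p = 3.92e-05), and for *Il1rn* the difference was 7.21 ± 0.73. *Tnfaip3*, *Rel*, and *Nfkb1*, feedback and core members of the pathway, had differences of -0.29, -0.18, and -0.06 and were not called.

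Of 18 neutrophil genes tested, 12 were called higher and 0 lower (median 5.23), and of 12 acute-phase genes 9 were called higher and 0 lower (median 3.29). With a pseudocount of 1 these medians were 2.13 and 1.98. In shPax6 retinas 11 of the 18 neutrophil genes rose, and in JNK3 KO retinas 9 fell. Under PBS 11 of the 18 were lower in shPax6 than in JNK3 KO. *S100a9*, the partner of *S100a8*, differed by 7.65 ± 0.24, from 2.23 and 1.84 FPKM to 31.32 and 32.0 in shPax6 and from 70.71 and 76.1 to 4.34 and 6.61 in JNK3 KO. *Slpi*, a protease inhibitor of neutrophils and epithelia, went from 0 and 0.44 to 23.83 and 14.28 FPKM in shPax6 and from 4.44 and 7.69 to 1.56 and 1.7 in JNK3 KO, a difference of 8.10 ± 0.92 (adjusted p = 0.000572). *Saa3*, the gene of an acute-phase serum amyloid, went from 1.29 and 1.76 to 5.0 and 14.59 in shPax6 and from 56.69 and 51.47 to 2.4 and 2.64 in JNK3 KO, a difference of 6.80 ± 0.55. The genes of haptoglobin and of leucine-rich alpha-2 glycoprotein, Hp and *Lrg1*, differed by 6.75 ± 0.33 and 5.30 ± 0.43, with JNK3 KO PBS the highest group for each. The granule gene *Ltf* and *Ngp*, which mark immature neutrophils, had differences of -0.21 and 0.00 and were not called. Among the 18 neutrophil genes, 4 were at 0 in both libraries of shPax6 PBS and 2 in those of shPax6 NMDA. For the knockout retinas the number was 1 with PBS, against 4 with NMDA. A gene at or near 0 in all 4 groups could not be called. Without their levels, the values of *Ltf* and *Ngp* do not show that these markers were unchanged.

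Markers of monocytes and macrophages moved in shPax6 mainly. Of 17 such genes 14 were called higher on the difference and 0 lower (median 2.87), 16 rose in shPax6, and 4 fell in JNK3 KO. *Arg1*, the arginase of alternatively activated macrophages, stood at 0.61 and 0.35 FPKM in shPax6 PBS, 61.98 and 59.2 in shPax6 NMDA, 12.44 and 11.77 in JNK3 KO PBS, and 9.84 and 8.52 in JNK3 KO NMDA. The JNK3 KO response was not called (-0.40), while shPax6 went from the lowest to the highest group (7.14 ± 0.29, adjusted p = 2.57e-06). *Ccr1*, a chemokine receptor of myeloid cells, differed by 5.29 ± 0.39, and *Pf4*, a chemokine of platelets and some macrophages, by 7.47 ± 1.17 with 0 and 0.43 FPKM in shPax6 PBS and 41.37 and 28.77 after NMDA. *Wfdc17*, made by activated macrophages, differed by 7.05 ± 1.56, but its shPax6 PBS libraries were at 0 and 2.36 FPKM, and the call was lost without any of the other 6 libraries (highest adjusted p = 0.0646).

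Of 13 genes of resident microglia 6 were called higher and 0 lower (median 1.06), a count that fell to 3 without any 1 of the 4 JNK3 KO libraries. *Tyrobp*, a signalling adaptor of microglia, went from 24.54 and 20.48 to 99.36 and 116.98 FPKM in shPax6 and from 47.58 and 45.72 to 22.58 and 19.4 in JNK3 KO, where the NMDA libraries overlapped shPax6 PBS (3.41 ± 0.17). *Selplg*, the gene of P-selectin glycoprotein ligand 1, showed the opposite composition, with a fall of 2.73 in JNK3 KO from 9.97 and 10.56 to 1.56 and 1.36 FPKM, and a shPax6 change of 0.54 that was not called. Of 14 genes of activated microglia, 7 were called higher and 0 lower (median 1.27). *Spp1*, the gene of osteopontin, and *Lgals3*, the gene of galectin 3, rose in both conditions. *Lgals3* went from 6.12 and 5.67 to 159.71 and 185.12 FPKM in shPax6 and from 16.69 and 15.69 to 57.86 and 53.25 in JNK3 KO, so the rise was 4.84 against 1.77 (difference 3.07 ± 0.16).

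Complement and antigen presentation genes were widely affected. Of 15 complement genes 10 were called higher and 0 lower (median 1.46), and of 18 antigen presentation genes 15 were called higher and 0 lower (median 1.87). C3, the central complement protein, went from 16.88 and 15.01 to 48.37 and 44.2 FPKM in shPax6 and from 14.27 and 13.35 to 3.57 and 2.73 in JNK3 KO. Its PBS levels nearly met, and both responses were called in opposite directions (3.64 ± 0.30, adjusted p = 9.73e-05). *H2-Aa*, a chain of MHC class II, stood at 11.94 and 11.51 FPKM in shPax6 PBS, 95.98 and 100.57 in shPax6 NMDA, 19.43 and 21.65 in JNK3 KO PBS, and 9.33 and 9.55 in JNK3 KO NMDA. The difference of 4.17 ± 0.13 (adjusted p = 3.01e-07) was among those with the smallest error, and *H2-Ab1* and the invariant chain *Cd74* gave 3.88 ± 0.17 and 3.87 ± 0.16. MHC class I genes moved less, with H2-K1 at 2.00 and H2-D1 at 1.38, both called.

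Interferon-stimulated genes make antiviral proteins. Of 34 tested, 16 were called higher and 0 lower (median 1.31), and in shPax6 retinas 14 rose. *Gbp2*, a guanylate-binding GTPase, went from 16.35 and 14.44 to 37.1 and 33.15 FPKM in shPax6 and from 12.79 and 10.7 to 4.78 and 4.49 in JNK3 KO (2.50 ± 0.19, adjusted p = 5.81e-05). The PBS groups stood close and the NMDA groups far apart. *Ifi207*, a member of the HIN-200 family, rose in shPax6 from 0.41 and 0.93 to 4.78 and 4.74 FPKM and stayed under 1 FPKM in each JNK3 KO library (2.63 ± 0.56). Its call was lost without JNK3 KO NMDA replicate 2 (adjusted p = 0.0542). *Ifit1* and *Ifih1*, which encode an antiviral RNA-binding protein and an RNA sensor, had differences of 0.32 and 0.24 and were not called. The shPax6 retinas had received a virus, and its part in this difference cannot be told apart from that of the knockdown.

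Immunoglobulin genes, which are made by plasma cells and B cells, were chosen after their values were seen. Of 102 tested, 98 exceeded a mean of 1 FPKM in shPax6 NMDA alone, so that the filter had already selected them for being high there and no count of calls is given for them. Their summed level was 9.22 and 9.81 FPKM in shPax6 PBS, 3176.27 and 3105.84 in shPax6 NMDA, 5.68 and 7.66 in JNK3 KO PBS, and 0.71 and 1.36 in JNK3 KO NMDA. The shPax6 NMDA libraries stood far above every other group. *Igkc* (chromosome 6, 70726435 to 70726966), the constant region of the kappa light chain, alone reached 1025.92 and 991.24 FPKM there, with 2.11 and 1.37 in shPax6 PBS, 1.27 and 2.83 in JNK3 KO PBS, and 0 in both JNK3 KO NMDA libraries. *Jchain*, which joins IgA and IgM units, rose from 9.75 and 8.9 to 73.58 and 66.43 FPKM in shPax6 and stood between 4.73 and 7.26 in JNK3 KO (3.39 ± 0.17, adjusted p = 6.11e-06). Reads of the variable segments can be shared among near-identical copies, so values of single segments are uncertain. Of 6 lymphocyte markers tested, 5 passed the filter through shPax6 NMDA alone, so no count of calls is given for them either. In shPax6 NMDA *Cd3g* of T cells stood at 2.39 and 1.45 FPKM and *Cd79a* of B cells at 2.95 and 1.76, which are low levels.

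Markers of cells from outside the neural retina moved with these groups. The summed neutrophil markers were at 12.87 and 9.26 FPKM in shPax6 PBS, 113.88 and 111.91 in shPax6 NMDA, 192.36 and 213.59 in JNK3 KO PBS, and 21.73 and 23.3 in JNK3 KO NMDA. The monocyte and macrophage sum reached 594.12 and 608.35 FPKM in shPax6 NMDA and lay between 101.74 and 218.67 elsewhere. The summed level of 5 fibroblast markers was 25.19 and 28.16 FPKM in shPax6 NMDA and 2.89 to 3.77 in the other groups. Of these 5, 2 passed the filter through shPax6 NMDA alone, so no count of calls is given for them. Erythrocyte markers were called higher in 4 of 5 cases, and 1 of the 5 passed the filter through shPax6 NMDA alone. Their sum was 50.31 and 28.57 FPKM in shPax6 PBS, 129.09 and 119.65 in shPax6 NMDA, 125.96 and 122.6 in JNK3 KO PBS, and 69.37 and 79.63 in JNK3 KO NMDA. The part of these cells in the differences above was not tested.

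**Figure D4:**
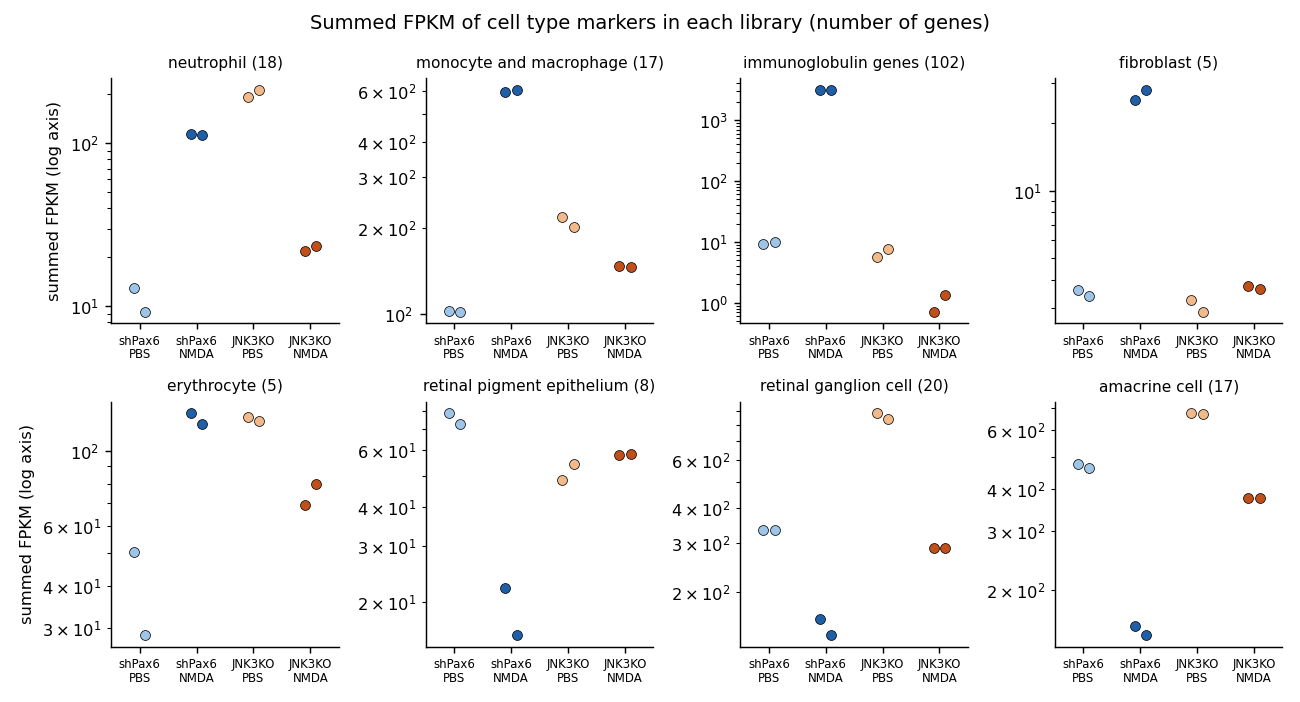
Summed FPKM of the tested markers of 7 cell types and of the immunoglobulin genes in each of the 8 libraries, on logarithmic axes that do not start at 0; each point is a library. Neutrophil markers were high in JNK3 KO PBS and shPax6 NMDA, while immunoglobulin, fibroblast, and macrophage genes were high in shPax6 NMDA and retinal pigment epithelium markers low there.

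Immediate early genes are switched on within minutes of synaptic activity or stress, and several, among them *Fos* and *Jun*, encode AP-1 subunits. Of 20 tested, 9 were called higher and 0 lower (median 1.09), 12 rose in shPax6, and 2 rose in JNK3 KO. *Egr1* was listed at 12.5 and 11.72 FPKM in shPax6 PBS, 81.95 and 86.32 in shPax6 NMDA, 14.57 and 16.26 in JNK3 KO PBS, and 20.85 and 21.14 in JNK3 KO NMDA. The PBS levels were close and the NMDA levels did not overlap (2.34 ± 0.14, adjusted p = 1.77e-05). *Fos* behaved alike, from 19.45 and 17.44 to 75.78 and 87.2 FPKM in shPax6 and from 23.8 and 19.98 to 17.72 and 21.65 in JNK3 KO (2.29 ± 0.18). *Arc*, an activity-regulated synaptic gene, differed by 3.55 ± 0.72. *Jun*, the substrate after which the JNK family is named, and *Junb* had differences of 1.23 and 1.36, both called. *Fosl1*, another AP-1 subunit, rose in both conditions, from 0.14 and 0.74 to 12.21 and 14.19 FPKM in shPax6 and from 0.89 and 1.31 to 7.6 and 8.0 in JNK3 KO, and its difference of 2.14 ± 0.71 was not called (adjusted p = 0.0676).

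The AP-1 subunit genes *Fos* and *Jun* were called, and AP-1 is known to act on genes of injured neurons, but its action here was not tested. The promoters of *Sprr1a* and *Plaur*, 2 genes of the axon regeneration list described below, are shown as examples that hold its letters. Each is the 250 bases before the transcription start in RefSeq, build GRCm38.p6, printed 5′ to 3′ on the gene's strand, with the matches to the AP-1 letters TGANTCA in capitals. Both strands were searched.
*Sprr1a*, chr3:92485882-92486131, minus strand: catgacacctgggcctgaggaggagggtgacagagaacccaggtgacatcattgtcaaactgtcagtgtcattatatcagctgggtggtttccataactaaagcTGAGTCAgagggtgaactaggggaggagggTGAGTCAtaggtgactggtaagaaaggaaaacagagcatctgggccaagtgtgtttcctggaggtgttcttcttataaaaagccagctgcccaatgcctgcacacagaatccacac
*Plaur*, chr7:24462233-24462482, plus strand: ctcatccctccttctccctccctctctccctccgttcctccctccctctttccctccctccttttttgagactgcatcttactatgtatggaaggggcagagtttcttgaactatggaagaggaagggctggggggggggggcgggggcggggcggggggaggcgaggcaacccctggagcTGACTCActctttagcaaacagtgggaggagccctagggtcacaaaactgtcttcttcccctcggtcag

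Windows of this kind were used for 11153 tested genes, 697 of them with a higher and 228 with a lower difference. The promoters of a whole autosome were left out before the search, so the shares below do not cover it. These genes had 14291 windows, and 8872 genes had 1 window only. A gene counted once if any of its windows held a match, so genes with more windows had more chances. The letters TGANTCA stood in 5.51% of all these genes, in 10.5% of those with a higher difference, and in 4.82% of those with a lower one. The cyclic AMP response element TGACGTCA, which differs from the AP-1 letters by its longer centre, stood in 3.08%, 2.3%, and 3.07%. The antioxidant response element TGACNNNGC, whose first letters are also those of some AP-1 matches, stood in 13.8%, 14.2%, and 17.1%. These shares describe letters in a window and say nothing of binding.

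Of 20 genes of the JNK pathway itself 0 were called on the difference, with a median of -0.08, and at an unadjusted p under 0.05 by limma 0 were higher and 2 lower. *Mapk8* and *Mapk9*, which encode JNK1 and JNK2, had differences of -0.35 ± 0.17 and -0.34 ± 0.16 (adjusted p = 0.207 and 0.18), and their levels overlapped between the NMDA groups for *Mapk8*. Over the 15888 autosomal genes 5065 had an unadjusted p under 0.05 on the difference, in either direction.

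Pro-apoptotic genes are set beside the 6.52% of all genes that were called higher. At an unadjusted p under 0.05 by limma 14 of them were higher and 1 lower on the difference, beside 5065 of all 15888 genes in either direction. Of 28 tested, 6 were called higher and 0 lower (median 0.48), and the count was between 2 and 6 over the alternatives, with 3 left once JNK3 KO PBS replicate 2 was omitted and 2 once JNK3 KO NMDA replicate 2 was. In shPax6 7 of them rose. In JNK3 KO 0 passed the limma test and 3 rose and 3 fell at an unadjusted p under 0.05. *Fas*, a death receptor, went from 1.57 and 1.37 to 3.11 and 4.24 FPKM in shPax6 and from 3.92 and 4.33 to 1.43 and 2.53 in JNK3 KO (2.33 ± 0.47, adjusted p = 0.0105). The JNK3 KO PBS libraries overlapped the shPax6 NMDA libraries. *Bbc3*, which encodes the BH3-only protein PUMA, went from 3.86 and 2.56 to 9.68 and 7.16 FPKM in shPax6 and from 2.43 and 2.48 to 1.99 and 1.63 in JNK3 KO (1.80 ± 0.41), and its call was lost without any 1 of 4 libraries (highest adjusted p = 0.0718). *Pmaip1*, which encodes NOXA, stood at 0 and 0.54 FPKM in shPax6 PBS and 2.13 and 1.28 after NMDA, with a difference of responses of 3.95 ± 1.09. Its call was lost without any library but those of shPax6 PBS, where the difference ranged from 2.61 to 5.29 with 1 library left out. It was also lost with no filter, with quantile normalization, and with the 8 libraries alone. Of the 28 pro-apoptotic genes, 1 passed the filter through shPax6 NMDA alone. *Bax*, the effector that opens the outer mitochondrial membrane, was at 43.88 and 39.48 FPKM in shPax6 PBS, 49.04 and 63.7 in shPax6 NMDA, 44.64 and 45.3 in JNK3 KO PBS, and 47.39 and 41.82 in JNK3 KO NMDA. Its difference of 0.44 ± 0.19 was not called (adjusted p = 0.148), nor were those of *Bad* at 0.34 ± 0.27 (adjusted p = 0.426), *Dedd2* at 0.34 ± 0.25 (adjusted p = 0.387), *Pdcd2* at 0.49 ± 0.33 (adjusted p = 0.358), and *Ing4* at 0.57 ± 0.12 (adjusted p = 0.0117 but an absolute value under 1). *Gadd45a*, induced by DNA damage, differed by 1.01 ± 0.21, just past the limit of 1. Its call was lost with either larger pseudocount, in TPM, under the other 3 scalings, with length correction, and without any 1 of 4 libraries (highest adjusted p = 0.052). Of 14 anti-apoptotic genes 3 were called higher, among them *Birc3*, an inhibitor of apoptosis (2.94 ± 0.61), and *Bcl2a1d* and *Bcl2a1b*, near-identical copies whose reads may be shared. Of 23 p53 target genes 6 were called, and 3 without JNK3 KO PBS replicate 2. Of the 6, *Bbc3*, *Fas*, *Pmaip1*, and *Gadd45a* are counted above, while *Cdkn1a* and *Mdm2*, the cell cycle inhibitor p21 and the regulator of p53, had differences of -0.24 and 0.22. Of the 23 p53 target genes, 1 passed the filter through shPax6 NMDA alone.

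Of 17 heat shock genes 5 were called higher and 0 lower. *Hspb1*, a small heat shock protein of injured neurons and glia, went from 7.44 and 5.25 to 76.92 and 61.15 FPKM in shPax6 and from 5.34 and 4.68 to 5.09 and 4.01 in JNK3 KO (3.58 ± 0.33, adjusted p = 0.000179). *Hspa1b*, the inducible HSP70, went from 30.67 and 31.76 to 158.39 and 162.03 FPKM in shPax6 and stayed between 18.98 and 21.09 in JNK3 KO (2.35 ± 0.14). Its neighbour *Hspa1a* is almost identical in sequence, so the split of reads between them is uncertain. Constitutive chaperones such as *Hspa8* and *Hsp90ab1* had differences of 0.07 and 0.01. Of 19 NRF2 and metal response genes 10 were called higher and 0 lower (median 1.09, or 0.70 with quantile normalization). *Hmox1*, heme oxygenase 1, went from 5.84 and 7.74 to 115.41 and 113.85 FPKM in shPax6 and from 17.04 and 15.14 to 36.27 and 37.53 in JNK3 KO, a rise in each condition (difference 2.88 ± 0.17). *Mt2*, a metallothionein, rose in shPax6 by 1.56, and its difference was 1.83 ± 0.13. *Nqo1* and *Srxn1*, NRF2 targets, had differences of 0.12 and 0.50 and were not called. Of 27 integrated stress response genes 4 were called, with *Nupr1* at 1.56 ± 0.09 and *Ppp1r15a*, the phosphatase subunit GADD34, at 1.24 ± 0.21.

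Gliosis genes were called higher in 10 of 16 cases and lower in 0 (median 1.16), *Lcn2* among them, and in 6 with quantile normalization. Some lists share called members, so their counts are not separate findings. *Lcn2* is also counted among the acute-phase genes, and *Plaur* among both the axon regeneration and the matrix protease genes. *Socs3*, the feedback inhibitor of STAT3, went from 15.92 and 14.36 to 69.61 and 86.04 FPKM in shPax6 and from 38.07 and 37.97 to 28.91 and 25.2 in JNK3 KO (2.84 ± 0.16). *Gfap*, the intermediate filament of reactive Müller glia and astrocytes, went from 50.36 and 42.86 to 102.98 and 97.8 FPKM in shPax6 and from 83.16 and 80.32 to 69.49 and 68.19 in JNK3 KO (1.36 ± 0.11). *Vim* and *Stat3* had differences of 0.58 and 0.30 and were not called. Of 13 markers of resting Müller glia 1 was called higher, a share near the 6.52% over all genes. It was *Clu*, the gene of clusterin, at 1.50 ± 0.07. At an unadjusted p under 0.05 by limma 4 of the 13 were higher and 3 lower. Of 18 genes tied to axon regeneration 5 were called higher and 0 lower. *Sprr1a*, a gene of injured axons, went from 0.68 and 1.01 to 11.21 and 10.61 FPKM in shPax6 and from 1.17 and 1.3 to 0.49 and 0.81 in JNK3 KO (4.43 ± 0.49, adjusted p = 0.000507). *Tubb6*, a tubulin, differed by 2.54 ± 0.25. *Plaur*, the urokinase receptor, rose in shPax6 by 3.18, but its difference of 2.17 ± 0.54 was lost without any 1 of 4 libraries (highest adjusted p = 0.101). Of 15 genes of matrix proteases and their inhibitors 4 were called higher. The count of 4 rose to 8 if shPax6 NMDA replicate 1 was left out, and was 2 if JNK3 KO NMDA replicate 1 was.

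**Figure D5:**
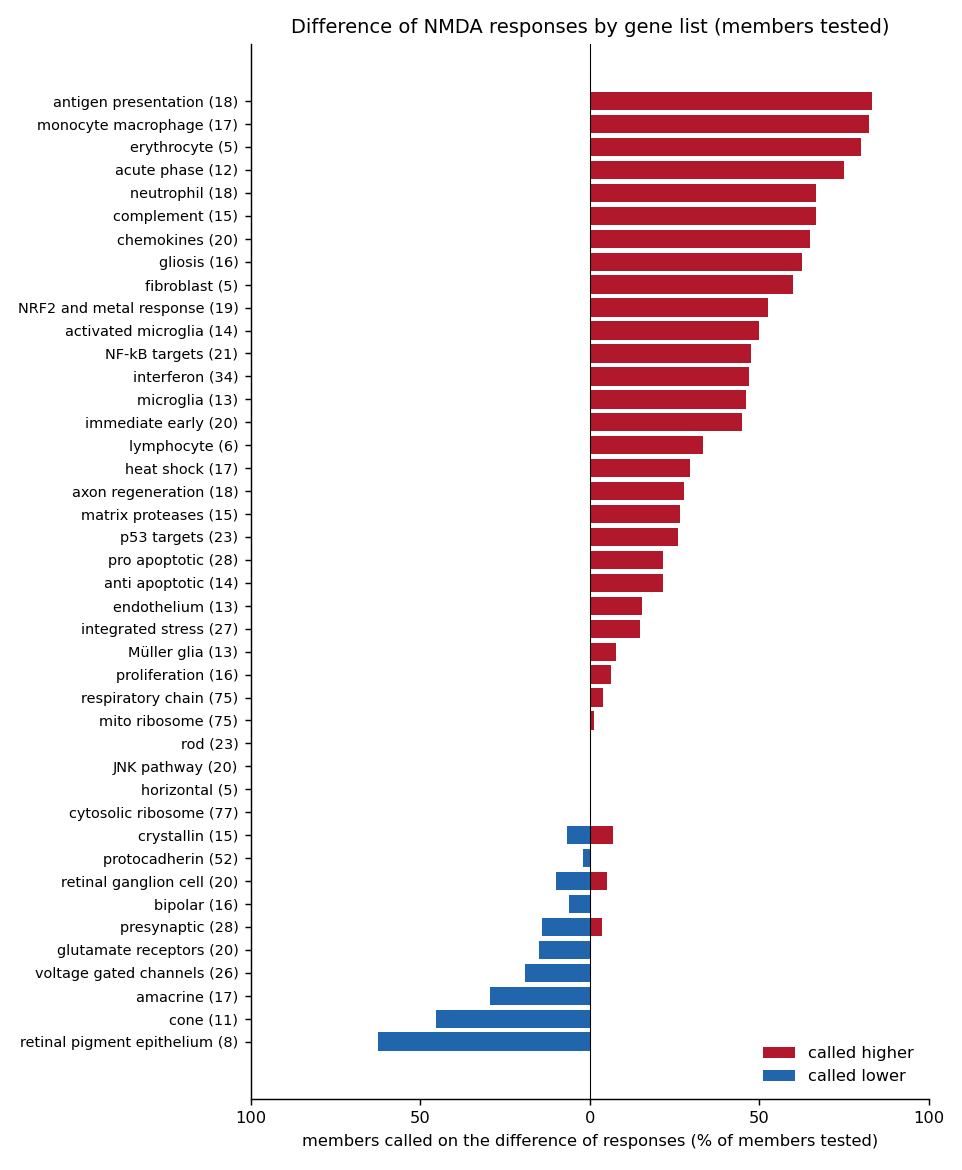
Share of the tested members of each gene list that were called higher (right) or lower (left) on the difference of responses, in percent, with the number tested in parentheses. Antigen presentation, macrophage, and acute-phase lists lie at the top, and amacrine, cone, and retinal pigment epithelium lists at the bottom. The lymphocyte and fibroblast lists held 5 of 6 and 2 of 5 members that passed the filter through shPax6 NMDA alone.

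The lists with more lower than higher calls were those of neurons, synapses, cones, and pigment epithelium. Of 17 amacrine genes 5 were called lower and 0 higher (median -1.10), and between 4 and 10 over the alternatives. In shPax6 13 of the 17 fell after NMDA, against 5 in JNK3 KO. *Gad2* (chromosome 2, 22622205 to 22693874), which encodes the GABA-synthesizing enzyme GAD65, stood at 8.54 and 9.76 FPKM in shPax6 PBS, 2.52 and 2.2 in shPax6 NMDA, 9.32 and 9.5 in JNK3 KO PBS, and 8.45 and 9.31 in JNK3 KO NMDA. The shPax6 NMDA libraries were low and the other 3 groups lay between 8.45 and 9.76 (-1.83 ± 0.20, adjusted p = 0.000422). *Gad1*, the gene of GAD67, differed by -1.58 ± 0.17 and *Tfap2b*, a transcription factor of amacrine cells, by -1.78 ± 0.14, each with PBS levels that overlapped. *Calb2*, the gene of calretinin, fell in both conditions, from 144.58 and 148.27 to 12.12 and 10.48 FPKM in shPax6 and from 297.14 and 284.97 to 57.44 and 55.28 in JNK3 KO (-1.32 ± 0.10). The neuropeptide gene *Vip* differed by -2.67 ± 0.21, from 6.27 and 7.52 to 1.21 and 1.37 FPKM in shPax6 and from 10.36 and 9.72 to 13.01 and 12.53 in JNK3 KO. The cholinergic genes *Chat* and *Slc18a3* had differences of 0.25 and -0.51 and were not called.

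RGC genes fell in both conditions. Of 20 tested, 13 fell in shPax6 and 11 in JNK3 KO, and on the difference 1 was called higher and 2 lower (median -0.22). Over all genes 6.52% were called higher and 2.06% lower. At an unadjusted p under 0.05 by limma 5 of the 20 were higher and 4 lower on the difference, beside 5065 of all 15888 genes in either direction. *Nefl*, the neurofilament light chain, was at 40.54 and 35.34 FPKM in shPax6 PBS, 7.56 and 7.73 in shPax6 NMDA, 140.69 and 138.47 in JNK3 KO PBS, and 32.58 and 32.34 in JNK3 KO NMDA. The levels were lower in shPax6 under both treatments, yet the falls of 2.29 and 2.10 did not pass the test for a difference (-0.19 ± 0.11, adjusted p = 0.265). The sum of the RGC markers was 332.98 and 333.54 FPKM in shPax6 PBS, 159.15 and 138.91 in shPax6 NMDA, 883.39 and 845.02 in JNK3 KO PBS, and 287.19 and 287.86 in JNK3 KO NMDA. The shPax6 PBS libraries were thus closer to JNK3 KO NMDA than to JNK3 KO PBS, and 11 of the 20 genes were called lower in shPax6 under PBS. *Nrn1*, the gene of neuritin, differed by -1.35 ± 0.29 and *Ebf3*, a transcription factor, by -1.73 ± 0.49, but both calls were lost when 1 library was left out (highest adjusted p = 0.0625 and 0.134). *Stmn2*, a microtubule regulator of growing axons, was the gene called higher. It fell in JNK3 KO from 51.38 and 46.71 to 19.72 and 19.0 FPKM, whereas the shPax6 libraries stayed at 22.13 and 22.79 under PBS and 26.07 and 17.35 after NMDA (1.26 ± 0.23). Without shPax6 NMDA replicate 1 its difference was 0.96.

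Synaptic and channel genes had weaker calls. Of 20 glutamate receptor genes 3 were called lower, of 28 presynaptic genes 4 lower and 1 higher, and of 26 voltage-gated channel genes 5 lower. Over all genes 2.06% were called lower and 6.52% higher, so the single higher presynaptic call was a share below that over all genes. The glutamate receptor count was 1 without any 1 of 3 of the JNK3 KO libraries, the presynaptic count of lower calls was between 2 and 6 over the alternatives and 2 without any 1 of 5 libraries, and the channel count was 1 after a correction for transcript length and 12 with quantile normalization. Across genes the difference fell with spliced length (Spearman rho = -0.298 over 15888 genes, which are not independent), with a median of 0.38 for genes under 1 kb and -0.25 for genes over 4 kb. *Rims2*, a scaffold of the active zone, kept its call in each alternative run and went from 76.7 and 77.52 to 37.15 and 39.22 FPKM in shPax6 and from 54.28 and 57.69 to 59.86 and 68.64 in JNK3 KO (-1.21 ± 0.12, adjusted p = 0.000216). *Kcnc2*, a potassium channel of fast-spiking neurons, went from 6.86 and 6.96 to 0.98 and 1.9 FPKM in shPax6 and from 7.96 and 8.3 to 5.83 and 6.12 in JNK3 KO (-1.82 ± 0.35). *Cacnb4*, a calcium channel subunit, differed by -3.48 ± 0.41, from 11.49 and 7.5 to 1.03 and 1.09 FPKM in shPax6 against 3.93 and 3.73 to 5.22 and 5.42 in JNK3 KO. *Rims1*, the relative of *Rims2*, and *Glra1*, a glycine receptor subunit, differed by -2.71 ± 0.64 and -2.38 ± 0.57, and each call was lost without any 1 of 6 libraries (highest adjusted p = 0.0772 and 0.0804).

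Of 11 cone genes 5 were called lower and 0 higher (median -0.90). The count was between 3 and 6 over the alternatives, and 3 without shPax6 PBS replicate 1 or JNK3 KO PBS replicate 2. Of 23 rod genes 0 were called in either direction, while at an unadjusted p under 0.05 by limma 16 were lower and 2 higher (median -0.26). *Opn1sw* (chromosome 6, 29376671 to 29388468), the short-wavelength cone opsin, stood at 382.51 and 334.38 FPKM in shPax6 PBS, 35.17 and 27.97 in shPax6 NMDA, 114.07 and 110.4 in JNK3 KO PBS, and 72.08 and 70.33 in JNK3 KO NMDA. The shPax6 libraries went from the highest to the lowest of the 4 groups (-2.85 ± 0.17, adjusted p = 1.39e-05). *Gnat2*, the cone transducin, went from 161.69 and 141.3 to 37.01 and 33.68 FPKM in shPax6 and from 92.84 and 87.08 to 63.75 and 64.64 in JNK3 KO (-1.61 ± 0.11). No test compared cone with rod genes. Of 16 bipolar genes 1 was called lower, *Tacr3*, whose call was lost without any 1 of 4 libraries, and of 5 horizontal cell genes 0 were called (2 lower at an unadjusted p under 0.05 by limma). *Neurod4*, a proneural factor of bipolar and amacrine cells chosen after its value was seen, showed the rarer form of a lower difference, with a rise in JNK3 KO from 37.59 and 38.77 to 77.66 and 77.38 FPKM and 36.58 and 40.9 against 33.75 and 32.03 in shPax6 (-1.25 ± 0.11).

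Retinal pigment epithelium genes had a median of -3.28 (-1.67 with a pseudocount of 1), with 5 of 8 called lower and 0 higher. *Rgr*, a retinal G protein-coupled receptor, went from 12.94 and 14.99 to 0.87 and 0.98 FPKM in shPax6 and from 9.55 and 12.91 to 10.59 and 12.13 in JNK3 KO (-3.81 ± 0.33, adjusted p = 0.000126). *Ttr*, the thyroid hormone and retinol carrier transthyretin, went from 35.76 and 32.34 to 2.46 and 4.37 FPKM in shPax6 and from 22.23 and 25.59 to 29.45 and 29.53 in JNK3 KO (-3.64 ± 0.31). *Rpe65*, the isomerase of the visual cycle, differed by -3.88 ± 0.53, and *Slc16a8*, a lactate transporter, was listed at 0 in both shPax6 NMDA libraries and at 1.22 to 3.33 FPKM in the others. The summed markers were at 78.48 and 72.75 FPKM in shPax6 PBS, 22.13 and 15.75 in shPax6 NMDA, 48.35 and 54.19 in JNK3 KO PBS, and 58.07 and 58.6 in JNK3 KO NMDA.

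Several genes responded to NMDA strongly in both conditions without a called difference. *Hmga2*, which encodes a chromatin protein, rose from 0.14 and 0.25 to 5.58 and 5.38 FPKM in shPax6 and from 0.89 and 0.68 to 12.4 and 12.26 in JNK3 KO. The rises were 4.27 and 3.82, and their difference of 0.44 ± 0.37 (adjusted p = 0.453) turned to -0.46 with a pseudocount of 1. *Layn*, a hyaluronan receptor, rose by 2.40 and 2.68 (difference -0.27 ± 0.71). *Gdf15*, a stress cytokine, rose from 0.95 and 1.41 to 7.74 and 6.17 FPKM in shPax6 and from 0.33 and 0 to 1.94 and 2.84 in JNK3 KO (-1.08 ± 0.85, adjusted p = 0.425). *Tac2*, a tachykinin gene, fell by 2.70 and 2.73, and *Pou4f3*, an RGC transcription factor, by 2.51 and 2.75, with differences of 0.03 ± 0.44 and 0.24 ± 0.95. With errors this wide, a difference near 1 was not detectable in *Layn*, *Gdf15*, or *Pou4f3*. Housekeeping lists gave a frame for these values. Of 77 cytosolic ribosomal protein genes 0 were called, since none passed an absolute value of 1, but 71 were higher at an unadjusted p under 0.05 by limma (median 0.42, between 0.09 and 0.48 over the alternatives), of 75 mitochondrial ribosomal genes 1 was called higher, and of 75 respiratory chain genes 3 were called higher, a share below the 6.52% over all genes. The respiratory chain count was between 1 and 4 over the alternatives and 1 without JNK3 KO PBS replicate 2 or JNK3 KO NMDA replicate 2, and 52 of the 75 were higher at an unadjusted p under 0.05 by limma (median 0.36).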

How the data were processed

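RNA-seq libraries of mouse retina (n = 12, 2 in each of 6 groups) were analysed from the gene table. Per the labels' processing notes, the authors used STAR 2.7.1a, RSEM 1.3.3, edgeR 3.36.0, R 4.1.0, and GRCm38.p6, and they deposited FPKM per gene and per transcript, estimated by RSEM. The FPKM hold no counts, so precision was taken from replicates, which differed by a median of 0.11 to 0.25 (log2) within groups. IDs were matched to GENCODE M21 (55227 of 55487 genes). Genes whose mean exceeded 1 FPKM in any of the 6 groups were kept, put on the log2(FPKM + 0.1) scale, and fitted with limma 3.58.1 (lmFit, eBayes with trend, R 4.3.3) as 6 group means with 6 residual degrees of freedom. Calls were made with Benjamini-Hochberg adjustment over the 16471 genes. Genes were named as those the study discusses, those of largest difference (mean over the 8 libraries above 3 FPKM), those of largest difference in each list, and genes of opposite or like responses, and a few after their values were seen. A few genes of the lists were counted but are not reported here by name. The members and lists were chosen with earlier results of these data known. The fitting code was tested on simulated data. The transcript table was used for lengths only, and no columns of comparisons were used. Promoters were taken from RefSeq. Alternatives were other pseudocounts (0.5 and 1), filters, scalings, libraries, and fits. Figures were drawn with Python 3.11.15.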

Additional observations from a re-analysis of the deposited data

Results flagged for a closer look

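The difference of responses was itself a test between 2 conditions, and all results here were picked out because it passed. It was called for 1363 genes, and 101 protein-coding genes rose after NMDA in shPax6 and fell in JNK3 KO retinas. Groups of 2 libraries were not checked for a single stray library.

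The 6 genes with the largest differences among those of called opposite responses were AA467197, *S100a8*, *S100a9*, *Il1r2*, *Il1rn*, and *Ltb*. AA467197, a small gene induced in activated macrophages, differed by 8.07, from 0.63 and 0.16 to 17.7 and 27.72 FPKM in shPax6 and from 4.67 and 7.52 to 1.0 and 1.09 in JNK3 KO retinas. *S100a8* and *S100a9* differed by 7.66 and 7.65. *Il1r2* and *Il1rn* differed by 7.50 and 7.21. *Ltb*, the gene of lymphotoxin beta, differed by 6.85 with low levels throughout, from 0 and 0.44 to 2.8 and 2.5 FPKM in shPax6 and from 1.81 and 1.69 to 0.26 and 0 in JNK3 KO retinas. In each of the 6 the PBS level was also called lower in shPax6.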

How the results depend on the processing

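Of the counts, that of the difference (1363) lay between 1089 and 1414 over the other pseudocounts, filters, scalings, library sets, and fits, at 2023 with an unadjusted p, and between 926 and 1849 with 1 library left out, when the lone library was assumed to vary like the others. The unadjusted p gave 726 genes in JNK3 KO against 416, and 1028 under PBS against 654. With 1 library left out the counts were 204 to 512 for the JNK3 KO response (222 and 244 without JNK3 KO PBS replicate 1 and 2, 233 and 204 without JNK3 KO NMDA replicate 1 and 2), 442 to 1004 under PBS (1004 without shPax6 PBS replicate 2), 1893 to 2590 for the shPax6 response, and 1258 to 2169 after NMDA. Quantile normalization moved the share of higher calls from 64.33% to 49.22% in the shPax6 response and from 18.04% to 36.13% under PBS. Same-numbered libraries shared only a number (correlations of deviations -0.11 to 0.09), and a replicate block gave 1314 genes on the difference, 2081, 390, 639, and 1780 in the other comparisons. A crossed pairing in JNK3 KO, chosen after seeing the data, gave 382. Of 149 named genes, 125 to 146 kept their direction and their side of the threshold in each alternative (148 could be tested without shPax6 NMDA replicate 1). Values that changed sign, none of them called, were *Hmga2* at -0.46 and -0.22 with pseudocounts of 1 and 0.5 and -0.27 with quantile normalization, and *Gdf15* at 0.33 and 0.0076 with those pseudocounts. *Tac2* was at -0.0434 in TPM, -0.13 by autosomal sum, -0.0905 by 75th percentile, -0.0854 by quantile, and -0.275 with length correction. *Rplp1* was at -0.0433 and *Mylpf* at -0.0349 with length correction. With 1 library left out *Tac2* ranged from -0.40 to 0.46, *Mylpf* from -0.26 to 0.83, *Pou4f3* from -0.66 to 1.14, *Layn* from -1.02 to 0.47, and *Pax6* from -0.17 to 0.0333. Ranges given for gene lists cover TPM, the scalings, length correction, a pseudocount of 1, and the fits with 1 library left out. The causes were not tested. Low FPKM and 2 libraries a group limit all calls.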
